A study of Mus musculus with 8 samples.

Results

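The Hsd3b family of the mouse was followed in liver through every array probe named for Hsd3b1, Hsd3b2, Hsd3b3, Hsd3b4, Hsd3b5 or Hsd3b6 in the array files. All 6 genes had at least 1 probe, which makes 6 of 27218 gene names on the array, and together they had 10 probes out of 41174 gene probes: 3 for Hsd3b2, 2 each for Hsd3b3 and Hsd3b4, and 1 each for the other genes. Each probe was kept apart, because the genes are closely related and a probe for one can bind transcripts of another. Livers came from male C57Bl/6J mice killed at 14 weeks of age after a 4 h fast, in 4 diet groups of 2 samples. In BD_HF the dams stayed on a standard breeder diet and the offspring received a high fat diet after weaning, with 60% of energy from fat. In LF_HF the dams were given, from embryonic day 10.5, a low fat diet containing enough vitamin A, with 12% of energy from fat, and the offspring received the same high fat diet. In VAD_VAD the dams, and later the offspring, received the low fat diet lacking vitamin A. In LF_LF the dams and offspring both received the low fat diet with enough vitamin A, from the same embryonic day. The source of the RNA was whole liver, so fewer cells of a type and less RNA per cell cannot be told apart. The labels do not say that the samples came from separate animals or litters, so the p-values measure only the spread between these samples, which may be technical.

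Enzymes of the 3beta-hydroxysteroid dehydrogenase family act at the third carbon of the steroid ring. The oxidative members turn pregnenolone into progesterone and dehydroepiandrosterone into androstenedione, steps on the way to the active steroid hormones, and Hsd3b1 is the main one in mouse adrenal gland and gonads. Hsd3b4 and Hsd3b5 encode mouse enzymes that work chiefly in the opposite direction, as ketosteroid reductases that can inactivate dihydrotestosterone. In mouse liver Hsd3b5 is a classic male-specific gene that depends on pulses of growth hormone, Hsd3b2 and Hsd3b3 are found in liver and kidney, and Hsd3b6 is known from skin, placenta and testis.

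A pair of 60-base probes is shown first because their genes carried the diet differences, and a second pair because they are the most alike of the 45 pairs of Hsd3b probes. Capitals in the second pair mark the bases that are identical where the probes overlap.
Hsd3b5 probe A_51_P496162: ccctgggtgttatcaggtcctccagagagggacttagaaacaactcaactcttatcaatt
Hsd3b4 probe A_51_P352005: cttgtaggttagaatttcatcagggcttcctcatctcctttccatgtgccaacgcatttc
Hsd3b2 probe A_52_P339759: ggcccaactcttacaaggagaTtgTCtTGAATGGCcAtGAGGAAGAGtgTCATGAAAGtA
Hsd3b6 probe A_52_P253567: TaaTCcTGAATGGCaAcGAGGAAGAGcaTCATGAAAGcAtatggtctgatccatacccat
All 10 probes match the minus strand of chromosome 3 in mm9, per the array files. The Hsd3b5 probe lies at chr3:98422848-98422907 and the Hsd3b4 probe at chr3:98303072-98303131. The Hsd3b2 probe lies at chr3:98516103-98516162 and the Hsd3b6 probe at chr3:98610436-98610495, and 31 of their 39 overlapping bases (79.5%) are the same, with a longest shared run of 9 bases. The next most alike pair, Hsd3b2 A_52_P318447 and Hsd3b5, reached 54.1% over 37 bases, so no Hsd3b probe is a copy of another. No other probe on the array shared a run of 20 bases with an Hsd3b probe. The transcripts listed for Hsd3b4 A_51_P352005 also include Gm10681, and those of the other Hsd3b4 probe, A_52_P548963, also include Gm4450, both neighbouring genes of the same cluster. The names of these signals are therefore those of the array design, and signal from a related transcript was not tested.

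Signals are background-handled Cy3 brightness of each spot on a linear scale. For comparison between arrays they were put on a log2 scale and the 75th percentile of the array was subtracted, so that 0 is the level of the array's 75th percentile probe. A probe was tested when it was well above background, by the scanner software's own flag, on both arrays of at least 1 group. This kept 26224 probes, among them 9 of the 10 Hsd3b probes; Hsd3b4 A_52_P548963 was not tested. The array's 75th percentile lay at a signal of 195.5 to 295.7 on 7 arrays and 496.1 on LF_HF replicate 1, which also had 2764 outlier spots against 66 to 365 on the others. The SD of the difference between the 2 replicates over all tested probes was 1.48 in LF_HF on the log2 scale, against 0.57 in BD_HF, 0.70 in VAD_VAD and 0.40 in LF_LF. No Hsd3b spot was saturated or marked as an outlier on any array.

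Hsd3b5 and Hsd3b4 were dim, though well above background, in LF_LF livers and far brighter in the livers of both high fat groups. Hsd3b5 gave a processed signal of 10479.8 and 9739 in BD_HF livers, 21820.3 and 13705 in LF_HF livers, 541.2 and 4475 in VAD_VAD livers, and 52.7 and 52.6 in LF_LF livers. All 4 high fat arrays were brighter than both VAD_VAD arrays, and both VAD_VAD arrays were brighter than both LF_LF arrays. Hsd3b4 A_51_P352005 gave 11121 and 10072 in BD_HF livers, 23185 and 12636 in LF_HF livers, 659.3 and 4410.5 in VAD_VAD livers, and 121.5 and 83.1 in LF_LF livers. Here too all 4 high fat arrays were brighter than both VAD_VAD arrays, which were brighter than both LF_LF arrays. On the scaled log2 scale Hsd3b5 averaged 5.80 ± 0.48 in LF_HF, 5.45 ± 0.023 in BD_HF, 2.72 ± 2.26 in VAD_VAD and -2.48 ± 0.017 in LF_LF (SD, n = 2 each). The high fat groups, neighbours in that order, overlapped on this scale, and the difference between BD_HF and VAD_VAD was not tested.

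**Figure D1:**
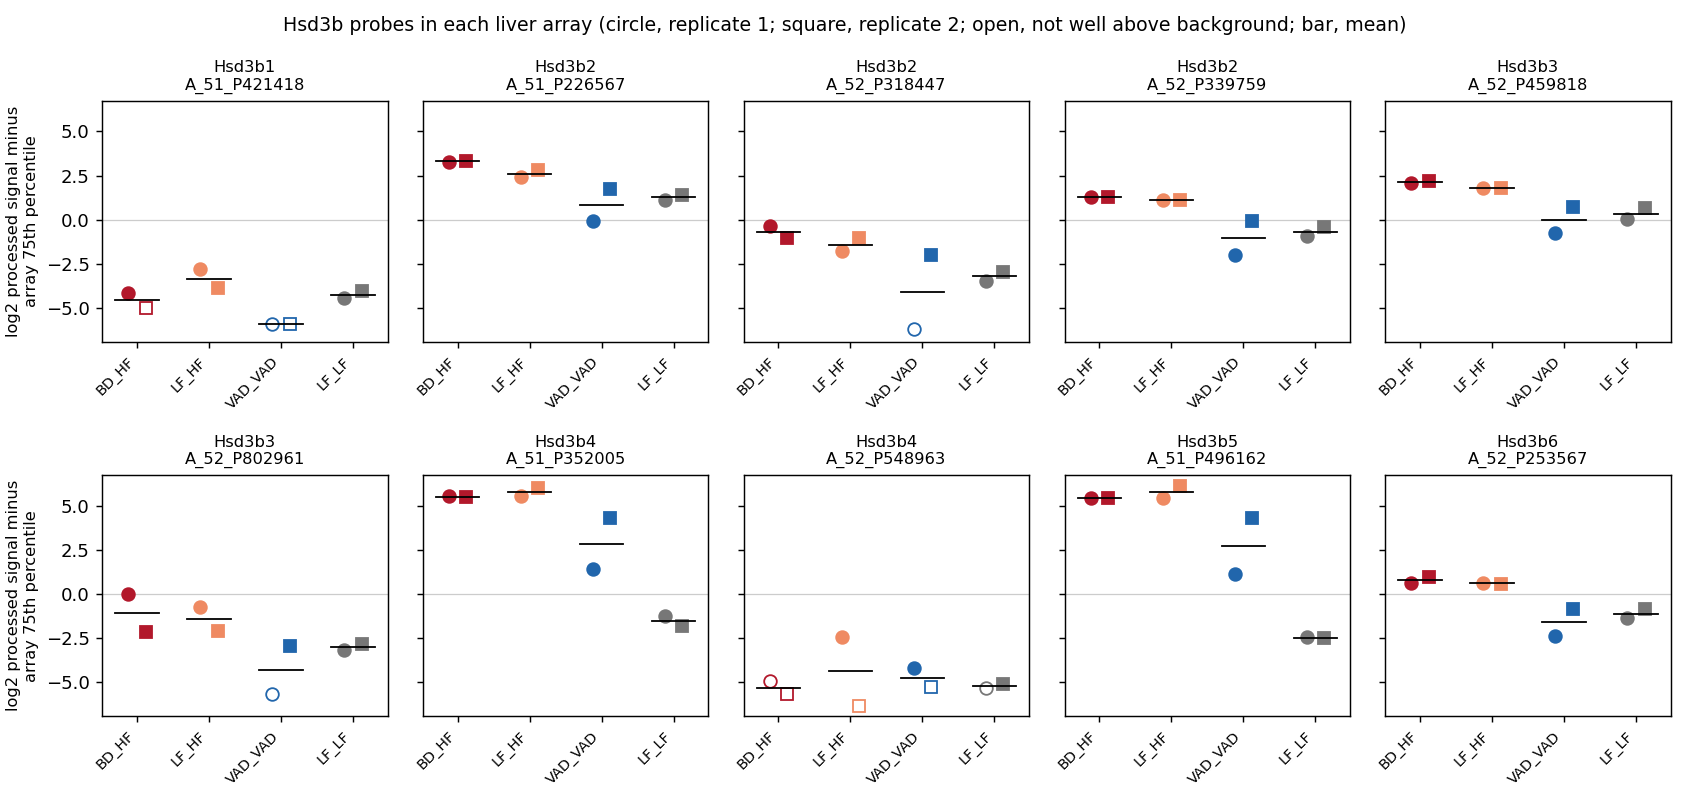
Log2 processed signal minus the array's 75th percentile for the 10 Hsd3b probes, by diet group. Points are arrays, open where not well above background, and bars are means of 2. Hsd3b5 and Hsd3b4 A_51_P352005 sit above 5 on all 4 high fat arrays and below -1 on both LF_LF arrays, with the VAD_VAD arrays apart from each other in between.

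Against LF_LF, the LF_HF comparison asks what the high fat diet after weaning did under the same maternal diet. Hsd3b5 was 8.27 ± 0.90 higher on the log2 scale in LF_HF livers (difference ± SE, 309.7-fold, limma adjusted p = 0.0145), with 7.93 within slide 1 and 8.62 within slide 2. Hsd3b4 A_51_P352005 was 7.33 ± 0.83 higher (160.5-fold, limma adjusted p = 0.0159), with 6.81 and 7.85 within the slides. These were the 2nd and 3rd largest increases among 26224 probes. Of the 9 tested Hsd3b probes, 2 rose, 0 fell and 7 did not pass, where 0.408% of all tested probes were called higher. The median difference of the 9 was 1.73, against 0.054 over all tested probes. Both calls ended without single arrays, in fits that leave a lone sample in a group. They ended without either BD_HF array, where fewer probes of the whole array were called than in the main fit. They also ended without either LF_LF array, where every other call of this comparison ended too. The difference itself stayed between 7.14 and 8.61 for Hsd3b5, and between 6.60 and 7.61 for Hsd3b4, over the 19 settings tried.

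The BD_HF comparison with LF_LF differs in both the maternal and the later diet, which cannot be told apart, and all 3 comparisons with LF_LF share its arrays. Hsd3b5 was 7.93 ± 0.90 higher in BD_HF livers (244-fold, limma adjusted p = 0.0179), and the value was 7.93 within each slide. Hsd3b4 A_51_P352005 was 7.06 ± 0.83 higher (134-fold, limma adjusted p = 0.0198). They ranked 1st and 2nd of 26224 from the top. Again 2 of 9 probes rose and 0 fell, where 0.263% of all tested probes were called higher. Both calls ended without either BD_HF array or either LF_LF array, and so did every other call of this comparison. Each of these fits leaves a lone sample in a group.

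**Figure D2:**
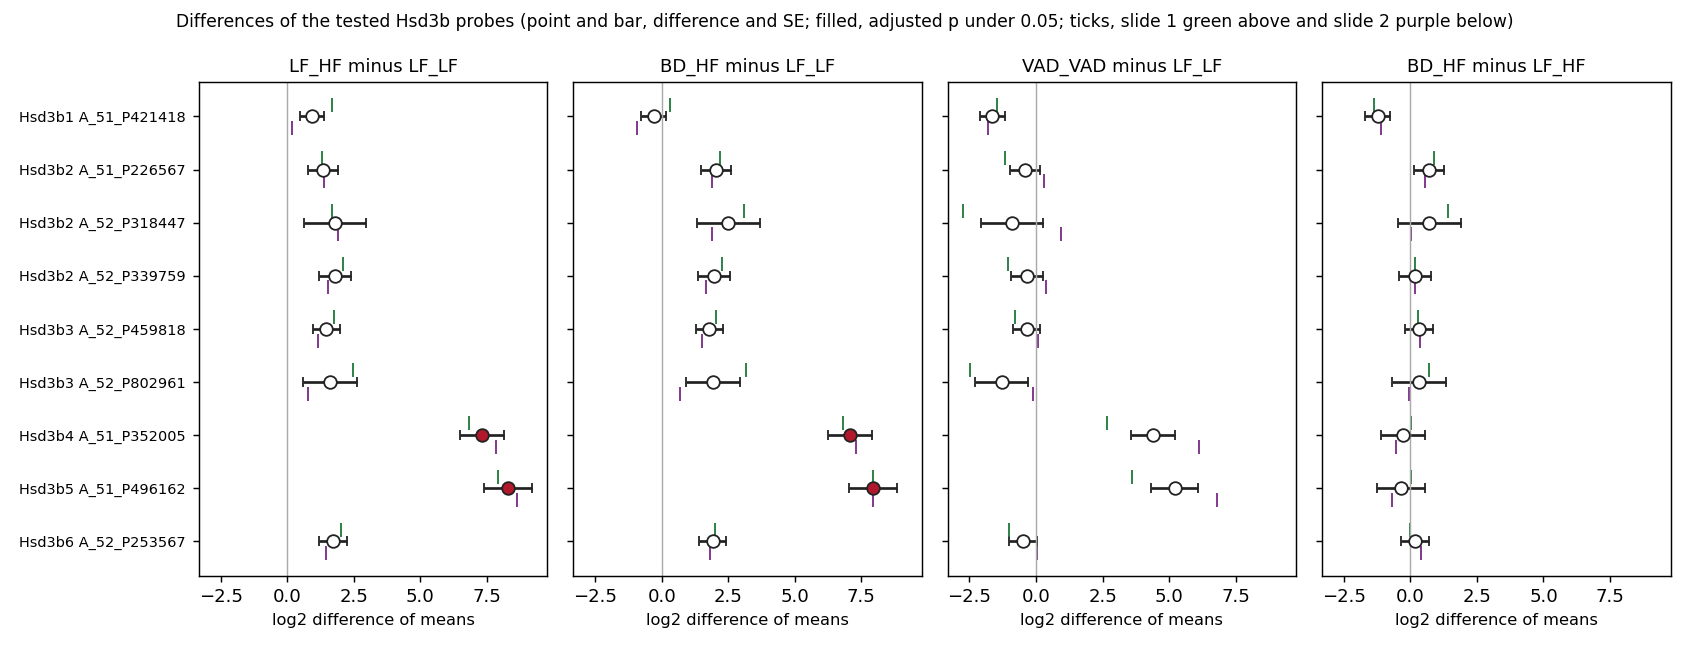
Log2 difference of group means with its SE for the 9 tested Hsd3b probes in 4 comparisons; filled points passed an adjusted p of 0.05 and ticks give the difference within each slide. Hsd3b5 and Hsd3b4 stand at 7.06 to 8.27 in both comparisons of a high fat group with LF_LF, while the Hsd3b2, Hsd3b3 and Hsd3b6 probes lie at 1.34 to 2.51.

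The VAD_VAD comparison with LF_LF asks what lack of vitamin A, from mid-gestation on, did under a low fat diet. Hsd3b5 was 5.203 ± 0.90 higher in VAD_VAD livers (36.8-fold) and did not pass (limma adjusted p = 0.0846), although it was the 3rd largest increase of 26224. Hsd3b4 A_51_P352005 was 4.40 ± 0.83 higher (21.1-fold, limma adjusted p = 0.104), the 10th largest. The size differed between slides: it was 3.59 on slide 1 and 6.81 on slide 2 for Hsd3b5, and 2.67 and 6.13 for Hsd3b4. None of the 9 tested Hsd3b probes was called, against 0.347% of all tested probes in either direction, and 3 of the 9 had an unadjusted p under 0.05 in limma, where 9.72% of all tested probes did. Leaving out either LF_HF array left both differences the same. Both probes then passed, but so did far more probes of the whole array than in the main fit, and a lone sample stood for LF_HF. Other alternatives that gave a call are in the closing section.

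The 2 VAD_VAD samples differed from each other in every tested Hsd3b probe except that of Hsd3b1. The untested Hsd3b4 A_52_P548963, near background, went the other way, with a gap of -1.12 (replicate 2 minus replicate 1). Replicate 2 was above replicate 1 by 3.20 on the log2 scale for Hsd3b5 and by 2.89 for Hsd3b4 A_51_P352005. Of the tested probes, 0.225% and 0.374% of 26222 had a gap at least that large, in either direction, between these 2 arrays. The Hsd3b2, Hsd3b3 and Hsd3b6 probes were also higher in replicate 2, by 1.504 to 4.19. Gaps as large were found in 4.46% of all tested probes for the smallest of these and in 0.0763% for the largest. Hsd3b2 A_52_P318447 had the widest gap, and its replicate 1 value was not well above background. In the other groups the replicate gaps of Hsd3b5 were -0.033 in BD_HF, 0.67 in LF_HF and -0.024 in LF_LF. What set the 2 VAD_VAD samples apart was not tested.

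Hsd3b2, Hsd3b3 and Hsd3b6 followed a shared and much shallower pattern. Hsd3b2 A_51_P226567, the brightest of their probes, gave 2316 and 2256 in BD_HF livers, 2632 and 1347 in LF_HF livers, 235.6 and 742.4 in VAD_VAD livers, and 625.1 and 789.3 in LF_LF livers. All 4 high fat arrays were above both LF_LF arrays, and VAD_VAD replicate 1 was the lowest of the 8. Hsd3b3 A_52_P459818 gave 987.8 and 1021 in BD_HF livers, 1712 and 681.9 in LF_HF livers, 145.8 and 373.2 in VAD_VAD livers, and 294.2 and 464.9 in LF_LF livers. Hsd3b6 gave 358.7 and 437.5 in BD_HF livers, 764.6 and 289.3 in LF_HF livers, 46.8 and 125.8 in VAD_VAD livers, and 111 and 161.1 in LF_LF livers. The order of arrays was alike in these probes: high fat above low fat, with VAD_VAD replicate 1 lowest. Of the other 2 Hsd3b2 probes and the second Hsd3b3 probe, Hsd3b2 A_52_P318447 and Hsd3b3 A_52_P802961 were not well above background on VAD_VAD replicate 1.

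None of these 6 probes passed in any comparison. LF_HF minus LF_LF was 1.34 to 1.80 on the log2 scale, with limma adjusted p from 0.183 for Hsd3b6 to 0.494 for Hsd3b2 A_52_P318447. All 9 tested Hsd3b probes had both LF_HF arrays above both LF_LF arrays, where 24.2% of all probes with values did. BD_HF minus LF_LF was 1.79 to 2.51, with limma adjusted p of 0.194 to 0.529, and 8 of the 9 Hsd3b probes did not overlap upward, against 34.7% of all probes. Their ranks from the top were 109 to 291 of 26224. VAD_VAD minus LF_LF was -0.34 to -1.30 with overlapping groups in all 6 probes and limma adjusted p of 0.741 to 0.879. On slide 1 all 6 were lower in VAD_VAD, by 0.78 to 2.73 in size, whereas on slide 2 their differences ran from -0.13 to 0.92. Without VAD_VAD replicate 1 all 6 differences were above 0, at 0.057 to 1.19.

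Hsd3b1, the oxidative enzyme of adrenal gland and gonads, was close to background. Its probe gave a signal of 13.2 and 7.04 in BD_HF livers, 71.5 and 13.1 in LF_HF livers, 4.03 and 3.74 in VAD_VAD livers, and 13.1 and 17.5 in LF_LF livers. It was not well above background on either VAD_VAD array nor on BD_HF replicate 2, and LF_HF replicate 1 stood highest. VAD_VAD minus LF_LF was -1.65 on the log2 scale and turned to 0.14 with another background correction, normexp, and the 75th percentile. With VAD_VAD set at the lowest level of any probe above background, the difference was 1.80-fold. That level comes from other probes, so 1.80-fold is not a lower limit. Hsd3b1 did not pass in VAD_VAD against LF_LF in the main fit (limma adjusted p = 0.292). It passed in that comparison without either LF_HF array, where far more probes of the whole array passed too. LF_HF minus LF_LF was 0.93 (limma adjusted p = 0.381) and turned to -0.61 after quantile scaling. Without LF_HF replicate 2 it was 1.48 and passed, again with far more probes of the whole array than in the main fit.

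Hsd3b4 A_52_P548963 did not follow the other Hsd3b4 probe. Its signal was 7.67 and 4.41 in BD_HF livers, 91.7 and 2.43 in LF_HF livers, 13.6 and 5.68 in VAD_VAD livers, and 7.201 and 8.71 in LF_LF livers. It was well above background on 3 of the 8 arrays and no group stood apart. The array files place it over 373 genomic bases, more than its own 60, and near the front of its listed transcript, from base 119, while A_51_P352005 starts at base 1536. Which transcripts each of the 2 Hsd3b4 probes measured was not tested.

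BD_HF minus LF_HF asks whether the maternal diet mattered under the same later high fat diet. None of the 9 tested Hsd3b probes was called, in a comparison where 0.00381% of all tested probes were called in either direction, and 1 of the 9, Hsd3b1, had an unadjusted p under 0.05 in limma, where 5.66% of all tested probes did. Hsd3b5 differed by -0.34 ± 0.90 and Hsd3b4 A_51_P352005 by -0.26 ± 0.83, and their groups overlapped. The Hsd3b2, Hsd3b3 and Hsd3b6 probes were 0.17 to 0.72 higher in BD_HF. Hsd3b1 was 1.23 ± 0.47 lower (limma adjusted p = 0.764). Without LF_HF replicate 2, which leaves the array with the many outlier spots alone in its group, Hsd3b1 passed at -1.78. Far more probes of the whole array passed there than in the main fit. Over the 4 groups at once, the moderated F test called Hsd3b5 (limma adjusted p = 0.0335) and Hsd3b4 A_51_P352005 (0.037), against 0.572% of all tested probes, and the other 7 had adjusted p from 0.170 to 0.465.

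**Figure D3:**
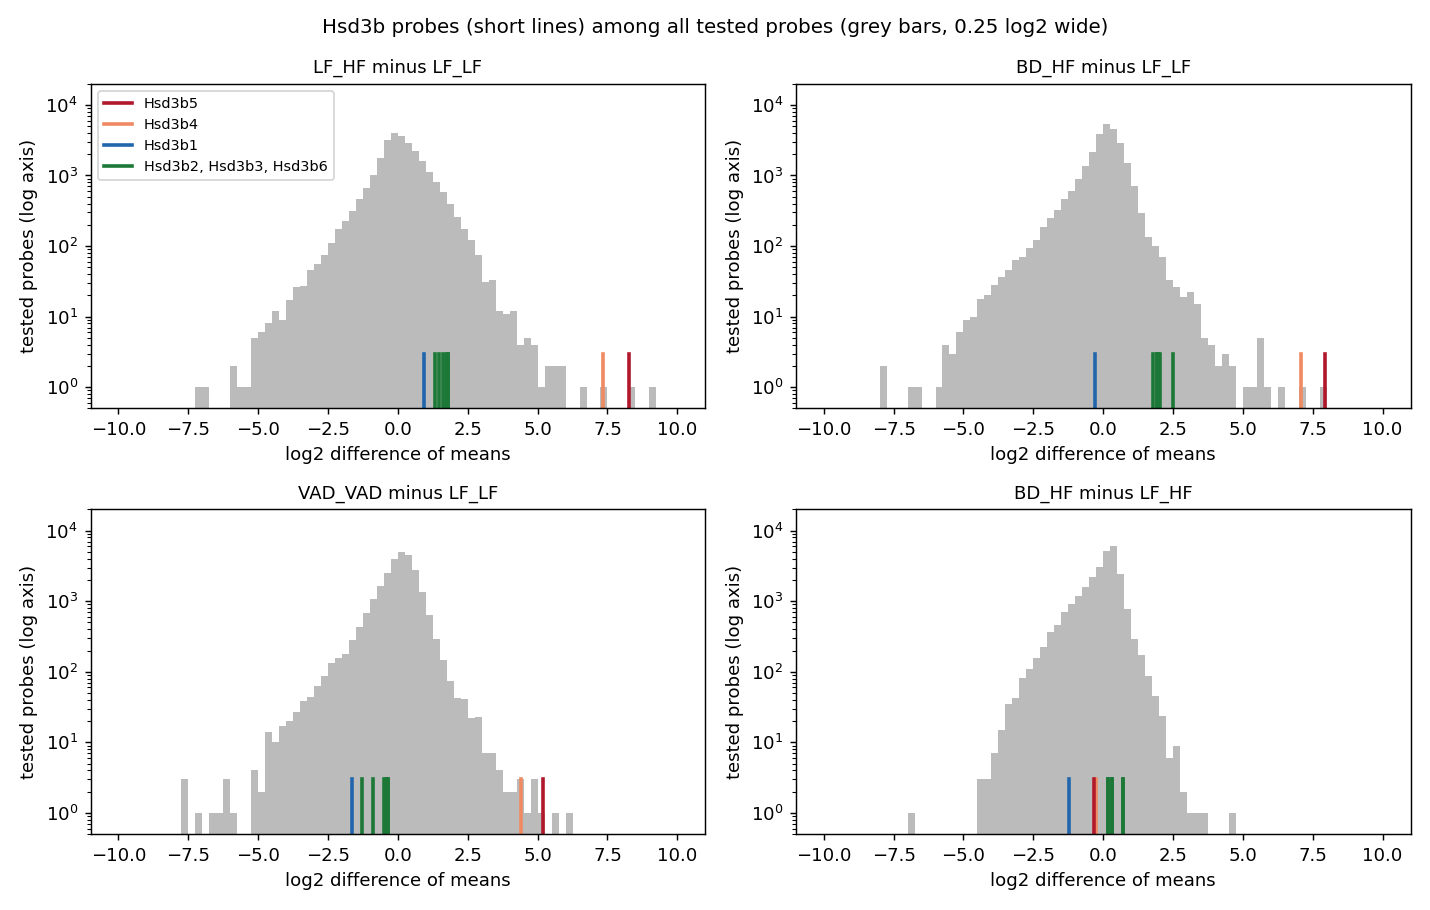
Number of tested probes (log axis) by log2 difference of means in 4 comparisons, with the 9 tested Hsd3b probes as short coloured lines. Hsd3b5 and Hsd3b4 lie at the far right edge in both high fat groups against LF_LF and at 5.203 and 4.40 in VAD_VAD against LF_LF, and near 0 between the high fat groups.

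The profiles were compared by the mean absolute difference of log2 values over the 8 arrays, after each probe's own mean was taken off. Among 24480 other tested probes with a value on every array, the nearest to Hsd3b5 was Hsd3b4 A_51_P352005, 0.33 away. Their 60-mers matched at 42.9% of 35 overlapping bases, which does not tell whether either probe binds the transcript of the other gene. The nearest probes of other genes were Cyp2c54 at 1.12, Susd4 at 1.21, Wif1 at 1.22, Irx1 at 1.26 and Cyp2c37 at 1.31. Wif1 was not well above background on any VAD_VAD or LF_LF array, and Irx1 on neither LF_LF array, so their distances and places in this order rest on values that set no level. Cyp2c54 and Cyp2c37 are cytochrome P450 enzymes, Susd4 is a complement regulator, Wif1 is a secreted Wnt inhibitor and Irx1 is a homeobox transcription factor. Susd4 gave 1767 and 1624 in BD_HF livers, 2961 and 2262 in LF_HF livers, 415.9 and 366.1 in VAD_VAD livers, and 34.8 and 58.6 in LF_LF livers. Its VAD_VAD samples lay close together, unlike those of Hsd3b5. The Hsd3b2, Hsd3b3 and Hsd3b6 probes were 2.25 to 2.39 from Hsd3b5 and ranked 98 to 175, and Hsd3b1 ranked 3772. Within the family the closest pair was Hsd3b2 A_52_P339759 and Hsd3b6, 0.12 apart, which is also the pair with the 31 identical bases shown above. Hsd3b3 A_52_P459818 lay 0.15 from Hsd3b6 and 0.16 from that Hsd3b2 probe. It had no such overlap with them, and probes were not compared with the transcripts of other genes. The 2 Hsd3b4 probes were 2.84 apart.

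**Figure D4:**
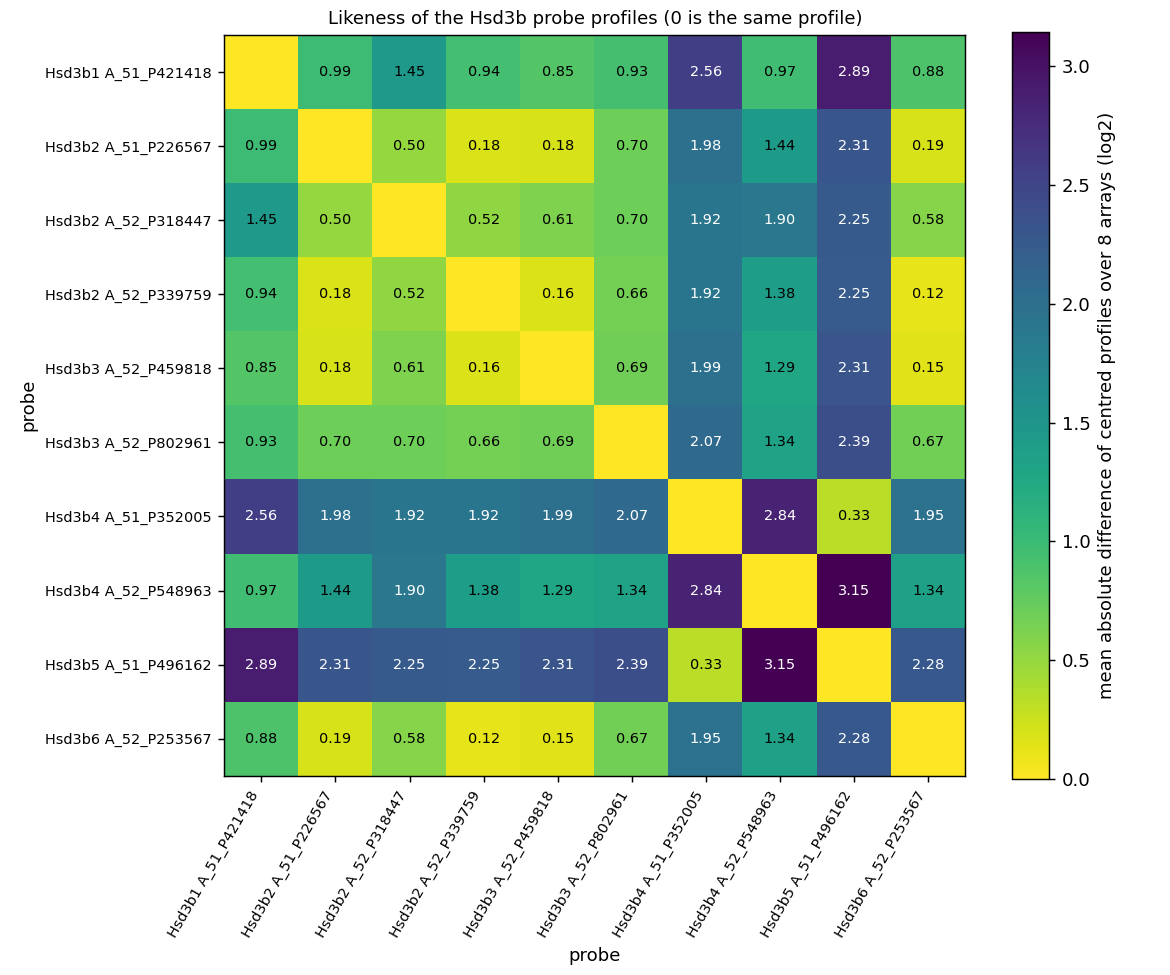
Mean absolute difference of the centred log2 profiles over 8 arrays for every pair of Hsd3b probes, where 0 is the same profile. Hsd3b5 and Hsd3b4 A_51_P352005 pair at 0.33, and Hsd3b6 lies 0.12 to 0.19 from Hsd3b2 A_51_P226567, Hsd3b2 A_52_P339759 and Hsd3b3 A_52_P459818.

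The genes stand in 1 cluster on chromosome 3, in the RefSeq order Hsd3b4, Gm10681, Hsd3b5, Hsd3b2, Hsd3b3, Hsd3b6 and Hsd3b1, so the 2 genes with the large differences have a single listed gene between them. All 6 had a RefSeq promoter of 300 bases, 250 before and 50 after the start (GRCm38.p6, minus strand), with 8 entries in all. The promoters of Hsd3b5 and of Hsd3b4 are shown because these genes moved together, and that of Hsd3b3 because it is the most like Hsd3b5. Capitals mark the 24-base run shared by Hsd3b5 and Hsd3b3, and in Hsd3b4 a match to ATTGAT, the core motif of the liver factor HNF6.
Hsd3b5 chr3:98645485-98645784: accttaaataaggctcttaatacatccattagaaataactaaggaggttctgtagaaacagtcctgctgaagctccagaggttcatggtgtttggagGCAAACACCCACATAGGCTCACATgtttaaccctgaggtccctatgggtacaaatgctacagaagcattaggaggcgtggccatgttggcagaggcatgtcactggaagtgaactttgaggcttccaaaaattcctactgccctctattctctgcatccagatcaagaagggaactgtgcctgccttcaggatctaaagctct
Hsd3b4 chr3:98510518-98510817: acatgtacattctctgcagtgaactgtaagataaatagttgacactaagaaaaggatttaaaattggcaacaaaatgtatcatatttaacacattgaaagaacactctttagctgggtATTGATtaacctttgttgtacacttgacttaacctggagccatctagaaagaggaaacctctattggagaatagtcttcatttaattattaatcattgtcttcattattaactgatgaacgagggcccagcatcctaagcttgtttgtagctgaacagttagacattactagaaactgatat
Hsd3b3 chr3:98763079-98763378: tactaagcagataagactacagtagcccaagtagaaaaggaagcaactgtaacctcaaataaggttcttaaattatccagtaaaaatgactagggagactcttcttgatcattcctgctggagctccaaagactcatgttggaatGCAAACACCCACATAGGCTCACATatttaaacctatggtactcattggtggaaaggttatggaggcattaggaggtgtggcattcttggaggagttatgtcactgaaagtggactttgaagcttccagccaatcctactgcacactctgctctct
Hsd3b5 and Hsd3b3 could be aligned over 250 columns with 75.2% identity, whereas the best local match of Hsd3b5 and Hsd3b4 was 10 bases long. Hsd3b2 shared a run of 19 bases with Hsd3b5 and a run of 16 bases with Hsd3b3. Promoter and profile likeness were not tested against each other over the pairs of genes. ATTGAT, searched on both strands, was in both Hsd3b4 entries, which overlap and hold the same site, and in none of the other 6, against 7.54% of 32851 mouse promoters. TTCNNNGAA, the palindrome read by STAT5, the transcription factor downstream of growth hormone, was in the Hsd3b1 entry only, against 8.30% of promoters. TATAAA was in 1 of 8 entries, the second one of Hsd3b4, against 13.6%. AGAACA followed by TGTTCT with 3 bases between, the palindrome read by androgen and glucocorticoid receptors, was in none of the 8 entries, and neither was AGGTCA repeated with 1 base between, read by PPAR and HNF4A, or with 5 between, read by retinoic acid receptors; 0.0091%, 0.0396% and 0.0091% of promoters held them. These are matches of letters in a short window and say nothing of binding.

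Few other genes of steroid metabolism passed. Of 22 tested enzymes that reduce, oxidise or conjugate steroids, 1 rose and 0 fell in LF_HF against LF_LF, where 0.49% of 17354 genes, with 1 probe each, were called higher. That gene was Akr1d1, the 5beta-reductase of steroids and bile acid intermediates, at 1.86 ± 0.31 (limma adjusted p = 0.0424). Akr1d1 also rose in BD_HF against LF_LF, by 2.23 ± 0.31 (limma adjusted p = 0.0316), again 1 of 22, against 0.317% of genes. In VAD_VAD against LF_LF 0 of 22 passed; the largest values were 2.24 for Sult1e1, the estrogen sulfotransferase, and 1.97 for Hsd11b1, which regenerates corticosterone. The list medians were 0.60, 0.77 and 0.50 in these comparisons, against -0.023, 0.11 and 0.093 over all genes. In the same order 18, 19 and 21 of the 22 enzymes were above 0. Of 9 tested steroid synthesis genes 0 passed in any comparison, with Cyp19a1, the aromatase, at 2.48 in LF_HF against LF_LF (limma adjusted p = 0.201). Cyp19a1 was well above background on at most 4 arrays, so its value rests partly on signals near background. The related enzymes Hsd3b7, of bile acid synthesis, Nsdhl, of cholesterol synthesis, and Sdr42e1 did not pass either, and the largest value was 1.24 for Nsdhl in LF_HF against LF_LF.

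Since Hsd3b5 is itself a male-biased liver gene, lists of sex-biased genes were set beside it; all samples were male. Of 17 male-biased genes, 2 rose and 0 fell in LF_HF against LF_LF: Susd4 by 5.76 ± 0.42 and Slco1a1, an organic anion transporter, by 3.43 ± 0.41 (limma adjusted p = 0.00593 and 0.0173). In BD_HF against LF_LF the same count held, with Susd4 at 5.58 and Slco1a1 at 3.51 (limma adjusted p = 0.00889 and 0.0198). In VAD_VAD against LF_LF 1 of 17 rose, Susd4 at 3.43 ± 0.42 (limma adjusted p = 0.0331), where 0.0576% of genes were called higher. The medians of the male-biased genes were 0.77 in LF_HF, 0.54 in BD_HF and 0.62 in VAD_VAD against LF_LF, with 15, 14 and 15 of the 17 above 0, where the medians over all genes were -0.023, 0.11 and 0.093. Of 15 female-biased genes 0 passed, with medians of -0.66, 0.42 and 0.19 in these comparisons. Cyp2b9, a female-biased cytochrome P450, differed by -3.52 in LF_HF, 1.16 in BD_HF and -0.91 in VAD_VAD against LF_LF. Of 20 genes of the growth hormone and androgen pathways and liver transcription factors 0 passed in any comparison. Their values included 2.61 for Bcl6, a repressor that binds STAT5 sites, in BD_HF and -1.51 for Socs2, a growth hormone target, in VAD_VAD, each against LF_LF.

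**Figure D5:**
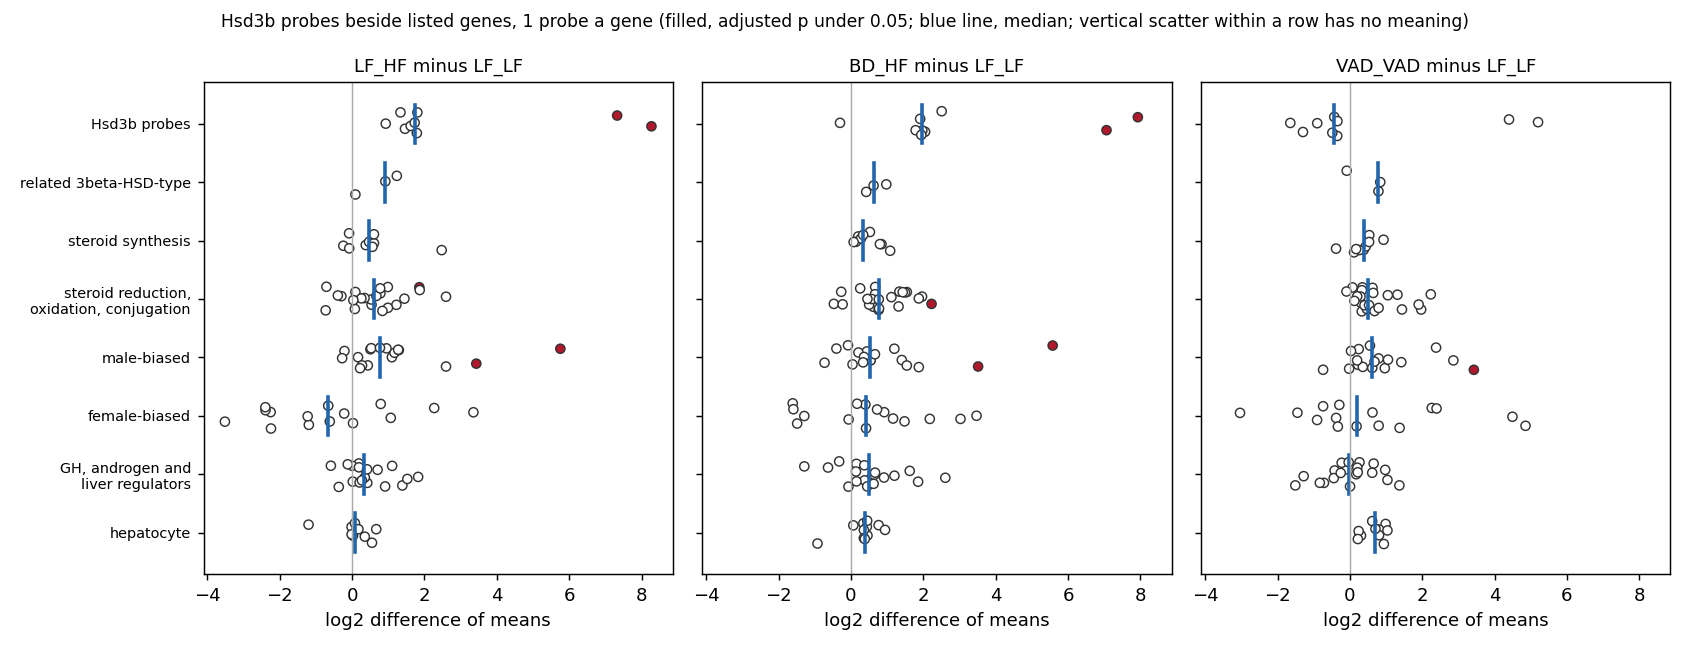
Log2 differences of the 9 tested Hsd3b probes and of listed genes in 3 comparisons with LF_LF; filled points passed an adjusted p of 0.05 and blue lines are medians. Hsd3b5 and Hsd3b4 lie beyond every listed gene in both high fat groups, and the next is Susd4 at 5.76 and 5.58.

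The tissue label was checked against marker genes. All 11 tested hepatocyte markers were well above background on 7 arrays and 9 of them on BD_HF replicate 2, where the spots of the other 2, Apoa2 and Fgb, were left out as outlier spots and add nothing to the sum, and 0 passed in any comparison; the median difference was 0.078 in LF_HF, 0.38 in BD_HF and 0.71 in VAD_VAD against LF_LF. The sums here and below are of processed signal that was not scaled between arrays. Added up, they gave a signal between 958563 and 1302350 on the BD_HF arrays, between 1375370 and 1507680 on the LF_HF arrays, between 1307200 and 1719100 on the VAD_VAD arrays, and between 1230700 and 1274580 on the LF_LF arrays. On the scaled log2 scale the hepatocyte medians of the LF_HF arrays were further apart, at 8.12 and 9.32. Of 8 adrenal cortex markers 4, and of 5 Leydig cell markers 2, had a probe well above background on all 8 arrays. These were Star, Cyp21a1, Mc2r and Mrap of adrenal cortex and Star and Cyp17a1 of Leydig cells. The adrenal markers Nr5a1 and Akr1b7 were well above background on 7 and 6 arrays. Cyp11a1 and Hsd17b3 were each well above background on 1 array, Cyp11b2 on 2 and Lhcgr on none. Of 10 kidney markers 7, Umod and Slc34a1 among them, were well above background on at most 1 array, whereas Aqp2 and Lrp2 were on 8 and Cdh16 on 6. Of the tested markers of adrenal cortex (6), Leydig cells (2), kidney (3), endothelium (6) and bile duct (6), 0 passed in any of the 4 comparisons. The Hsd3b differences ran beside differences in some non-parenchymal markers. The endothelial markers did not share a direction, with medians of -0.77 in LF_HF, 0.39 in BD_HF and 0.42 in VAD_VAD against LF_LF. The bile duct markers, though none passed, had medians of -1.79 in LF_HF, -1.48 in BD_HF and -1.51 in VAD_VAD against LF_LF, with 5, 6 and 6 of the 6 below 0. Added up, they gave 2444 to 2740 on the BD_HF arrays, 1373 to 3380 on the LF_HF arrays, 1403 to 1755 on the VAD_VAD arrays, and 5480 to 8206 on the LF_LF arrays. Of 8 stellate cell and fibroblast markers, 4 fell in LF_HF, 3 in BD_HF and 4 in VAD_VAD against LF_LF, where 1.42%, 0.789% and 0.352% of genes were called lower. Col1a1, a fibrillar collagen gene, fell by 4.67 in LF_HF, fell by 4.01 in BD_HF and fell by 3.81 in VAD_VAD. Added up, the 8 markers gave 21891 to 26435 on the BD_HF arrays, 12625 to 31323 on the LF_HF arrays, 22870.4 to 34720.2 on the VAD_VAD arrays, and 58223 to 70092 on the LF_LF arrays, so both LF_LF arrays were above every other array. Of 8 macrophage markers, 3 fell in LF_HF, 1 in BD_HF and 1 in VAD_VAD, in each case including Trem2, a receptor of lipid-associated macrophages, which fell by 3.71 in LF_HF, fell by 3.36 in BD_HF and fell by 2.77 in VAD_VAD. Added up, the 8 macrophage markers gave 19801 to 21444 on the BD_HF arrays, 11513 to 30817 on the LF_HF arrays, 17989 to 24470.3 on the VAD_VAD arrays, and 44878 to 49986 on the LF_LF arrays. The part of these cells in the Hsd3b differences was not tested.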

How the data were processed

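The arrays carry the Agilent design 014868; per the file headers, Feature Extraction 10.7.3.1 made the files, and the submitters' processing notes also name limma, in a role not given in the sources used here. The deposited processed signal is an intensity on a linear scale after background handling, per the file headers. The deposited series table holds that intensity in rounded form, off by at most 0.497%. Here the deposited intensity was put on a log2 scale, spots of a probe were averaged, outlier spots were left out, and each array's 75th percentile was subtracted. Array number limits the precision. Probes well above background on both arrays of a group were tested with limma 3.58.1 (lmFit, eBayes) in R 4.3.3, all 8 arrays in one fit; p-values were adjusted by Benjamini-Hochberg over 26224 probes, with a threshold of 0.05. Scripts were tested on simulated data.

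Every Hsd3b probe is described. Of each of 14 lists, with 1 probe a gene, up to 4 called genes are named, or else up to 2 with the largest differences; the 5 nearest probes to Hsd3b5 of other named genes are named too; some genes that this rule names are not reported here. Defining markers of other tissues named for their detection were picked after their values were seen. Members and lists were chosen with earlier results of these data known. Genes were named through the RefSeq GRCm38.p6 table for 28223 of 41174 probes.

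Replicate 1 was on slide 1 and replicate 2 on slide 2 for all 8 arrays, per the file headers, so the replicate block is also the slide block. Deviations of same-numbered arrays correlated at 0.067 to 0.25 across probes. Alternatives changed the background, scaling, filter, outlier handling, variance model, unit of test, block and each array. Sequences were compared with biopython 1.88 in Python 3.11.15 and plots drawn with matplotlib 3.10.9 and pandas 2.3.3; tables used data.table, version 1.17.8, and jsonlite 2.0.0.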

Additional observations from a re-analysis of the deposited data

How the results depend on the processing

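The counts of called Hsd3b probes were 0 in BD_HF minus LF_HF, 2 in LF_HF minus LF_LF, 0 in VAD_VAD minus LF_LF, 2 in BD_HF minus LF_LF and 2 in the F test. These 5 counts were the same with the series table, with detection on at least 6 arrays, with outlier spots kept and with 1 probe a gene. Normexp with the 75th percentile gave 4 in LF_HF minus LF_LF, adding Hsd3b2 A_52_P339759 and Hsd3b6. It gave 2 in VAD_VAD minus LF_LF, Hsd3b5 (limma adjusted p = 0.0345) and Hsd3b4. In BD_HF minus LF_LF it gave 3, adding Hsd3b6 (limma adjusted p = 0.0331), and 3 in the F test. Of all probes, 4023, 367, 778 and 758 were called in these, against 404, 91, 238 and 150 in the main fit. Normexp with quantile scaling gave 3 in LF_HF minus LF_LF, adding Hsd3b6 (limma adjusted p = 0.0449), where 1388 of all probes were called. In the F test it gave 3, where 813 of all were called. Trend and robust variances gave 2 in VAD_VAD minus LF_LF (Hsd3b5 limma adjusted p = 0.00954), 4 in BD_HF minus LF_LF and 6 in the F test. There 281, 632 and 771 of all probes were called. Quantile scaling of the processed signal gave 0 in the F test, where 173 of all probes were called. With no filter on dim probes 0 Hsd3b probes passed in LF_HF minus LF_LF, in BD_HF minus LF_LF and in the F test, where limma called 0 of all 41174 probes; 5, 6 and 7 Hsd3b probes had an unadjusted p under 0.05, where 16.4%, 6.57% and 6.71% of all probes did, and the median of all probes moved to 0.54 in LF_HF minus LF_LF. With the replicate block the F test called 1, where 80 of all probes were called. Hsd3b5 kept its calls against LF_LF (limma adjusted p = 0.0173 in LF_HF and 0.0231 in BD_HF) and the VAD_VAD value was 0.0915. No other call changed. Leaving out 1 array at a time leaves a lone sample in a group, which was taken to vary like the other groups. The Hsd3b calls then changed in every comparison and in the F test. Over all probes, the calls in each ran from none to far more than in the main fit.

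Signs turned only for differences that had not passed. Normexp with the 75th percentile gave 0.14 for Hsd3b1, 0.24 for Hsd3b2 A_52_P318447 and 0.036 for Hsd3b3 A_52_P802961 in VAD_VAD minus LF_LF, and 0.28 for Hsd3b1 in BD_HF minus LF_LF. Normexp with quantile scaling gave 0.082 for Hsd3b2 A_52_P318447 in VAD_VAD minus LF_LF, 0.056 for Hsd3b1 in BD_HF minus LF_LF and 0.039 for Hsd3b1 in BD_HF minus LF_HF. Quantile scaling of the processed signal gave 0.41 for Hsd3b1 and -0.048 for Hsd3b2 A_52_P339759 in BD_HF minus LF_HF, and -0.61 for Hsd3b1 in LF_HF minus LF_LF; it moved the median of all probes to 0.23 and -0.21. Over the arrays left out in turn, BD_HF minus LF_HF of Hsd3b3 A_52_P802961 ran from -0.74 to 1.39, and BD_HF minus LF_LF of Hsd3b1 from -0.72 to 0.12. VAD_VAD minus LF_LF ran from -1.33 to 0.47, -2.997 to 1.19 and -1.31 to 0.63 for the Hsd3b2 probes, -1.10 to 0.40 and -2.65 to 0.057 for the Hsd3b3 probes and -1.27 to 0.30 for Hsd3b6. The cause of these turns of sign was not tested. For Hsd3b5 the same comparison ran from 3.60 to 6.80. With 2 samples a group, differences near 1 on the log2 scale, and larger ones for some probes, were within reach of single arrays. Signals of Hsd3b1 and Hsd3b4 A_52_P548963 near background set no level.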

Other observations

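Genes beside the Hsd3b cluster were looked at for values only. Phgdh, the first enzyme of serine synthesis, had 3 probes. Phgdh A_51_P408732 differed by -3.58 on the log2 scale in BD_HF minus LF_LF (limma adjusted p = 0.0272), opposite in sign to Hsd3b5. In LF_HF minus LF_LF it differed by -3.55, a value that rests on a lone LF_HF sample. The SE was 0.50 there, against 0.41 in BD_HF minus LF_LF. Its other probes, at -1.61 and 0.024 in LF_HF minus LF_LF, did not pass. Zfp697 differed by 0.59 in LF_HF, 0.76 in BD_HF and 0.62 in VAD_VAD against LF_LF without passing, and Hao2, on the far side of Hsd3b1, was not tested because it was too dim.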
